A study of Homo sapiens with 6 samples.

Results

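The 10 genes described here were 6 chemokine genes (CXCL8, CXCL1, CXCL2, CXCL5, CCL2 and CCL20), the cytokine gene IL6, the NF-kB inhibitors NFKBIA and TNFAIP3, and the adhesion gene ICAM1. They were taken from a list of names rather than by their levels, although the list was chosen with earlier results of these data known. All 10 were found by gene identifier among 34957 genes in the deposited tables. RNA-seq had been carried out on A549 cells, an established epithelial line from a human lung adenocarcinoma, 48 h after lipid transfection with an siRNA. The study examined what loss of the long noncoding RNA PLANE, the product of MELTF-AS1, does to the transcriptome.

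There were 3 groups with 2 libraries each. The si-ctrl cells, labelled NC, received a negative control siRNA and carry the numbers 1 and 2. The si-PLANE.1 cells carry the same numbers, and the si-PLANE.2 cells carry 3 and 4. All groups shared the same parental line, which is a single tumour line, and the same transfection procedure. The labels do not say whether the libraries of a group came from separate cultures. The p-values below therefore rest on the spread between libraries, shared in part across genes, and that spread may be technical. PLANE was not analysed here, and the values therefore hold no check of its knockdown.

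NF-kB is a family of dimeric transcription factors that is kept in the cytoplasm by inhibitor proteins of the IkB family. Signals from tumour necrosis factor, interleukin-1 or Toll-like receptors lead to degradation of the inhibitor, entry of the dimer into the nucleus and transcription from promoters that hold kappaB sites. Epithelial cells of the airway use this pathway to make chemokines that call in neutrophils and monocytes, and the inhibitor genes NFKBIA and TNFAIP3 are themselves targets that feed back on the signal.

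Expected counts, which estimate the reads from each transcript, summed to between 10572151 and 20778431 per library. The si-PLANE.2 libraries stood apart, with log2 gene levels correlating at 0.991 with each other and at 0.854 to 0.876 with the other 4, which correlated at 0.963 to 0.973 among themselves (across genes, which are not independent replicates). Histone genes whose mRNAs lack a poly(A) tail had median levels of 203 to 391 FPKM (fragments scaled for transcript length and sequencing depth) in the other 4 libraries and of 2.94 and 3.12 FPKM with the si-PLANE.2 libraries. The study's methods name both poly(A) isolation and rRNA removal and do not say which library had which, so in what follows the siRNA and the way the si-PLANE.2 libraries were made cannot be told apart. Of 14 A549 markers, 13 or 14 reached 1 FPKM in every library, although EPCAM and CDH1 were lower and KRT8 higher after si-PLANE.2. Leukocyte markers summed to between 23.0 and 46.5 FPKM in the other 4 libraries and to 60.6 and 71.1 FPKM after si-PLANE.2, most of it CD68, while AIF1 and CD3E were listed at 0 in all 6. Fibroblast and endothelial markers summed to 10.5 to 21.0 FPKM in the other 4 libraries and to 3.95 and 4.69 FPKM after si-PLANE.2. In bulk RNA, fewer cells expressing a gene and less RNA per cell cannot be told apart.

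The promoters are shown first because the 10 genes are grouped by a shared regulator. Of the 10, 9 were matched by symbol to the RefSeq promoter table (GRCh38.p14), and CCL2 was not. The kappaB consensus was searched on both strands in the 250 bases before the start site, as 3 G, a purine, any 2 bases, 2 pyrimidines and 2 C, together with a looser form that lacks the first G. The full consensus was found in 7 of the 9 promoters and in 9.96% of 35116 promoters of that length. The looser form, which overlaps every match of the full one, was found in 9 of 9 and in 28.4% of all. CXCL8 and ICAM1 matched only the looser form. The windows below hold the full match nearest to the start site, or the nearest looser one where no full match was found, with its flanks. Matches of the same form that overlap it are also in capitals, and all are read along the gene's strand. Other matches are not marked. The lower-case flank of TNFAIP3 holds a second full match, at bases -67 to -58, and CXCL1, CXCL2 and CXCL3 hold looser matches nearer to the start.

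CXCL8, chr4:73740458-73740506, plus strand: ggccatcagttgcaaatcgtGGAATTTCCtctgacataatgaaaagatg
CXCL1, chr4:73869294-73869344, plus strand: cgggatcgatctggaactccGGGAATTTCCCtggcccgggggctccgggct
CXCL2, chr4:74099243-74099293, minus strand: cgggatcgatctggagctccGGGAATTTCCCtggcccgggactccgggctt
CXCL3, chr4:74038738-74038788, minus strand: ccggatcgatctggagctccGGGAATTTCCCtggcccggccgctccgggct
CXCL5, chr4:73998738-73998788, minus strand: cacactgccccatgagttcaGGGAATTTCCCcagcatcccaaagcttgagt
CCL20, chr2:227813743-227813792, plus strand: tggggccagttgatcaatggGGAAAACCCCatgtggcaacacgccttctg
IL6, chr7:22727107-22727156, plus strand: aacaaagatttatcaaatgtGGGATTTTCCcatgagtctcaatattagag
NFKBIA, chr14:35404801-35404850, minus strand: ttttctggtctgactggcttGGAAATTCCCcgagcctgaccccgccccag
TNFAIP3, chr6:137867184-137867233, plus strand: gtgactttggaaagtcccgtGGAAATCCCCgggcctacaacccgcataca
ICAM1, chr19:10270914-10270962, plus strand: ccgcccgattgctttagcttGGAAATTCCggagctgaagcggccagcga

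CXCL1, CXCL2 and CXCL5, and CXCL3, a near copy of CXCL1 and CXCL2 that is not among the 10 genes, held the same 11 capital letters, in which a match on each strand overlaps one on the other, offset by 1 base. These matches lay between 68 and 91 bases before the start site. The AP-1 motif TGANTCA was found in 1 of the 9 promoters, that of CXCL8, and in 6.57% of all. TATAAA was found in 4 of 9, those of CXCL8, CCL20, NFKBIA and ICAM1, and in 10.7% of all. A match of letters is a description and shows no binding.

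**Figure D1:**
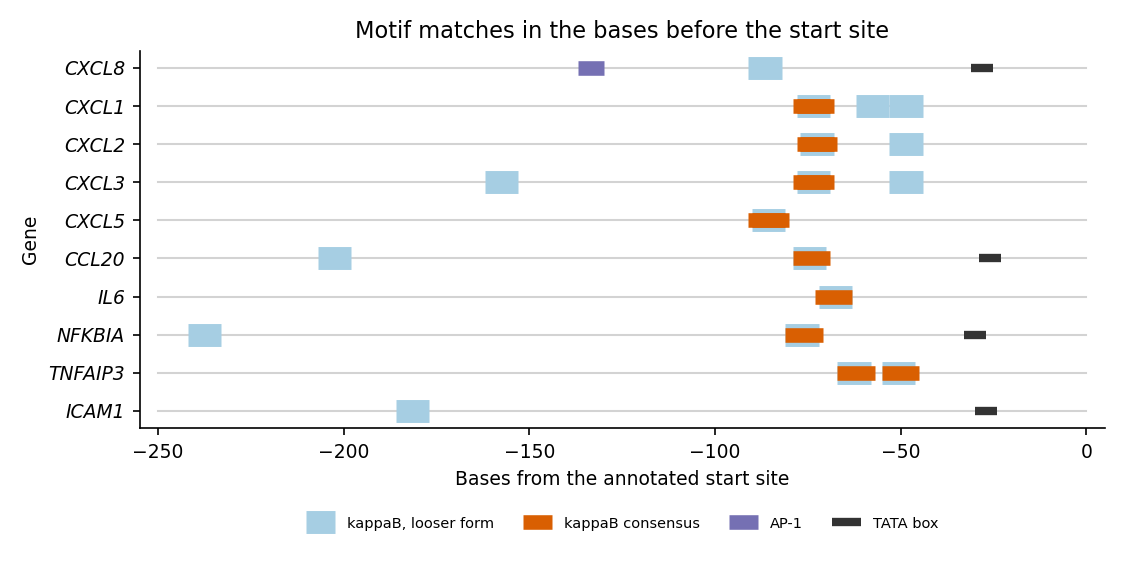
Each line is the stretch of 250 bases before the annotated start site of one gene (horizontal axis, bases from the start), and blocks mark matches to the motifs on either strand. Full kappaB matches (orange) cluster within 100 bases of the start in 7 of the 9 promoters found and in CXCL3, while CXCL8 and ICAM1 hold the looser form only (light blue).

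CXCL8, CXCL1, CXCL2 and CXCL5 encode chemokines of the CXC class that attract neutrophils through CXCR1 and CXCR2. CXCL8 (ENSG00000169429, chr4:74606236-74609433, plus strand; gene positions are of GRCh37) was at 93.8 and 93.2 FPKM with si-ctrl, 65.4 and 48.6 FPKM with si-PLANE.1 and 175 and 171 FPKM with si-PLANE.2. The 3 groups did not overlap, with si-PLANE.1 lowest and si-PLANE.2 highest. In edgeR's quasi-likelihood test on the counts, with Benjamini-Hochberg adjustment over all genes tested, CXCL8 was 2.35-fold higher after si-PLANE.2 than in si-ctrl (log2 1.23 ± 0.13, SE; adjusted p = 0.00012). After si-PLANE.1 its log2 difference was -0.66 ± 0.15, which did not pass the adjusted p of 0.05 (0.288). This value and those of the other genes after si-PLANE.1 come from a fit without the library number as a block. With that block 8 of the 9 genes tested were called lower, all but CXCL1. The blocked fit leaves little spread of a gene's own, and no label says that the numbers mark a batch.

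CXCL1 (ENSG00000163739, chr4:74735110-74737025, plus strand) was at 97.1 and 56.4 FPKM with si-ctrl, 77.8 and 49.6 FPKM with si-PLANE.1 and 487 and 504 FPKM with si-PLANE.2. Libraries of si-ctrl and of si-PLANE.1 overlapped, and both si-PLANE.2 libraries lay far above them. It was 5.58-fold higher after si-PLANE.2 (log2 2.48 ± 0.23, adjusted p = 7.82e-05), the largest called difference from si-ctrl among the 10 genes. CCL2 passed it with protein-coding transcripts alone (log2 2.26 against 1.99) and with the most abundant transcript (2.31 against 2.02). The difference after si-PLANE.1 was -0.33 ± 0.28 on the log2 scale (adjusted p = 0.714).

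CXCL2 (ENSG00000081041, chr4:74962757-74964913, minus strand) was at 33.6 and 22.3 FPKM with si-ctrl, 24.3 and 16.9 FPKM with si-PLANE.1 and 57.5 and 61.8 FPKM with si-PLANE.2. It was 2.58-fold higher after si-PLANE.2 (log2 1.37 ± 0.16, adjusted p = 0.000246) and differed by -0.55 ± 0.25 after si-PLANE.1 (adjusted p = 0.505), where the libraries overlapped those of si-ctrl. CXCL5 (ENSG00000163735, chr4:74861359-74864394, minus strand) was the most abundant of the 6 chemokines in si-ctrl, at 265 and 128 FPKM, with 181 and 115 FPKM with si-PLANE.1 and 337 and 293 FPKM with si-PLANE.2. Its si-ctrl libraries lay far apart, with a log2 ratio of FPKM of -1.06 between library 2 and library 1. The 1.84-fold higher level after si-PLANE.2 (log2 0.88 ± 0.28, adjusted p = 0.0277) passed narrowly. The call was lost in DESeq2 (adjusted p = 0.119), in limma at every scale run (0.0949 to 0.185), with the most abundant transcript (0.101), with protein-coding transcripts alone (0.0627), without si-PLANE.2 library 3 (0.121) and without library 4 (0.0589). Its log2 value was 1.46 without si-ctrl library 1 and 0.46 without si-ctrl library 2.

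CXCL1, CXCL2 and CXCL3 share stretches of mRNA. In the annotated coding transcripts the longest identical run was 77 bases between CXCL1 and CXCL2, 97 bases between CXCL2 and CXCL3 and 55 bases between CXCL1 and CXCL3, and 19.2% of the 25-base words of CXCL1 occurred in CXCL2. How the estimated counts divided such reads is not given in the sources used here, so the split among these 3 genes is uncertain. CXCL5 and CXCL8 shared at most 12 bases with each other or with these genes. CXCL3 was at 23.0 and 17.2 FPKM with si-ctrl, 17.1 and 10.7 FPKM with si-PLANE.1 and 63.0 and 69.6 FPKM with si-PLANE.2, and was 3.87-fold higher after si-PLANE.2 (log2 1.95 ± 0.13, adjusted p = 2.02e-05).

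CCL2 and CCL20 encode CC chemokines. CCL2 draws monocytes through CCR2, and CCL20 draws dendritic cells and lymphocytes through CCR6. CCL2 (ENSG00000108691, chr17:32582293-32584227, plus strand) was at 29.4 and 17.9 FPKM with si-ctrl, 11.1 and 6.59 FPKM with si-PLANE.1 and 103 and 106 FPKM with si-PLANE.2. The 3 groups were fully separated. CCL2 was 5.20-fold higher after si-PLANE.2 (log2 2.38 ± 0.20, adjusted p = 4.58e-05). After si-PLANE.1 it had the most negative log2 difference of the 9 genes tested, -1.51 ± 0.33. Without the library number as a block, edgeR gave an unadjusted p of 0.00197 and an adjusted p of 0.278. With that block CCL2 was called lower.

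CCL20 (ENSG00000115009, chr2:228670455-228682280, plus strand) was at 109 and 119 FPKM with si-ctrl, 69.8 and 82.8 FPKM with si-PLANE.1 and 125 and 111 FPKM with si-PLANE.2. The si-PLANE.1 libraries lay below all the others, and si-PLANE.2 overlapped si-ctrl. On the counts CCL20 was 1.29-fold higher after si-PLANE.2 (log2 0.37 ± 0.12, adjusted p = 0.0248), whereas limma on log2(FPKM + 1) gave 0.05 and on log2(TPM + 1) the direction turned to -0.11. The call was also lost without si-PLANE.2 library 3 (adjusted p = 0.202) and without library 4 (0.0541). After si-PLANE.1 the log2 difference was -0.74 ± 0.16 (adjusted p = 0.278 in edgeR without the library number as a block). With that block CCL20 was called lower.

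IL6 (ENSG00000136244, chr7:22765503-22771621, plus strand), a cytokine that signals through IL6R and IL6ST, was barely detected. Its expected counts were 2 and 0 in si-ctrl, 0 and 0 in si-PLANE.1 and 5 and 8 in si-PLANE.2, which is at most 1.12 FPKM. A minimum mean of 0.5 FPKM over the libraries of a comparison was required for testing, and IL6 met it only in si-PLANE.2 against si-ctrl, through the si-PLANE.2 libraries (adjusted p = 0.112). At this depth a difference in IL6 was not detectable, and no fold is given.

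NFKBIA and TNFAIP3 restrain the pathway. NFKBIA encodes IkB alpha, which holds NF-kB in the cytoplasm. It (ENSG00000100906, chr14:35870285-35873955, minus strand) was at 181 and 194 FPKM with si-ctrl, 174 and 143 FPKM with si-PLANE.1 and 87.4 and 107 FPKM with si-PLANE.2. In FPKM, unlike the chemokines, NFKBIA was lowest after si-PLANE.2, with no overlap between si-ctrl and si-PLANE.2. That order did not hold on the counts, where the log2 difference from si-ctrl was -0.36 ± 0.13 after si-PLANE.1 (adjusted p = 0.419 in edgeR). On the counts NFKBIA was 1.26-fold lower after si-PLANE.2 (log2 -0.33 ± 0.09, adjusted p = 0.0143). The value was -0.95 in limma on log2(FPKM + 1) and -1.11 on log2(TPM + 1), and the call was lost without si-PLANE.2 library 3 (adjusted p = 0.177) and without library 4 (0.0957). The direction turned, to 0.01, when transcripts annotated as protein-coding were counted alone and, to 0.10, with the most abundant transcript, neither passing the threshold.

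TNFAIP3 (ENSG00000118503, chr6:138188351-138204451, plus strand) encodes A20, a ubiquitin-editing enzyme that shuts off signalling upstream of the inhibitors. It was at 14.9 and 12.7 FPKM with si-ctrl, 9.10 and 8.74 FPKM with si-PLANE.1 and 19.1 and 22.4 FPKM with si-PLANE.2, without overlap between any groups. It was 1.55-fold higher after si-PLANE.2 (log2 0.63 ± 0.10, adjusted p = 0.0012), a call that was lost with limma on log2(TPM + 1) (0.102). After si-PLANE.1 the log2 difference was -0.45 ± 0.14 (adjusted p = 0.386).

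ICAM1 (ENSG00000090339, chr19:10381769-10397291, plus strand), the endothelial and epithelial ligand of leukocyte integrins, was at 1.76 and 1.26 FPKM with si-ctrl, 0.92 and 0.35 FPKM with si-PLANE.1 and 1.74 and 1.50 FPKM with si-PLANE.2. These levels rest on 11 to 84 expected counts per library. The si-PLANE.1 libraries were the lowest (log2 difference from si-ctrl -1.38 ± 0.43, adjusted p = 0.381). Between si-PLANE.2 and si-ctrl the log2 difference was 0.03, with a 95% interval of -0.56 to 0.63 (adjusted p = 0.923).

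**Figure D2:**
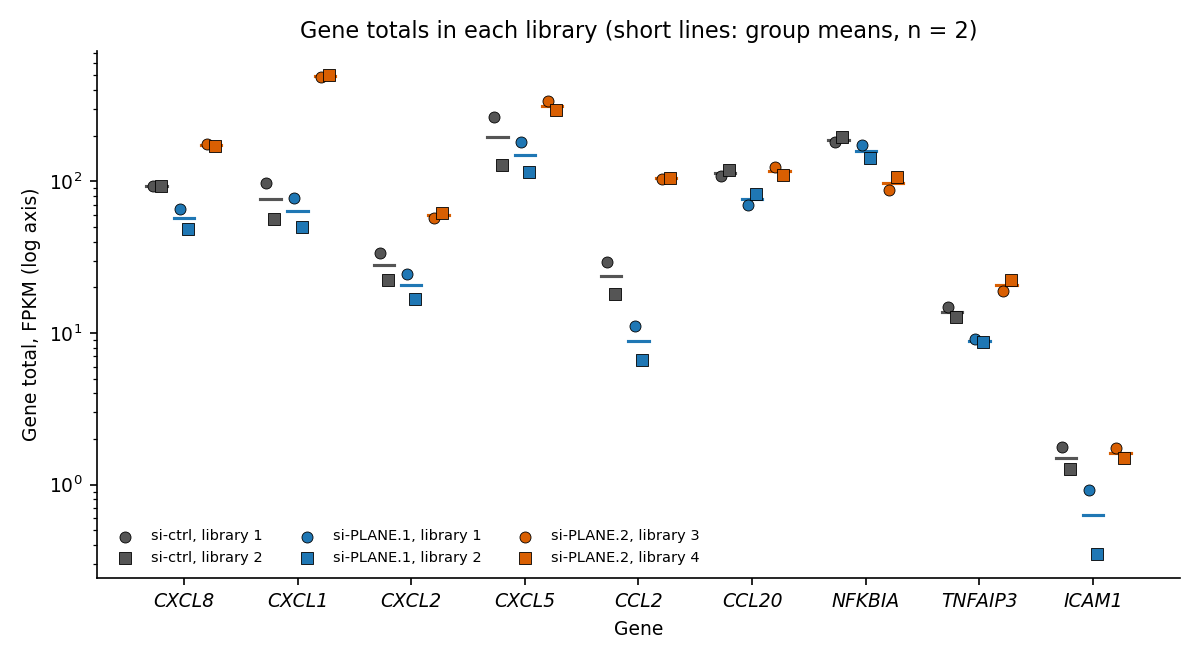
Gene totals in FPKM (log axis) of 9 genes in each of the 6 libraries, coloured by group, with circles for the lower and squares for the higher library number and short lines for group means. IL6 is left out because 3 of its libraries are at 0. CXCL1 and CCL2 stand highest above the other groups after si-PLANE.2, at 487 and 504 FPKM and at 103 and 106 FPKM. NFKBIA stands lowest there in FPKM, although not on the counts.

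In si-ctrl the order of mean levels was CXCL5 (197 ± 97.5 FPKM, SD, n = 2), NFKBIA (188 ± 9.23), CCL20 (114 ± 7.27), CXCL8 (93.5 ± 0.43), CXCL1 (76.7 ± 28.8), CXCL2 (27.9 ± 7.96), CCL2 (23.7 ± 8.10), TNFAIP3 (13.8 ± 1.58), ICAM1 (1.51 ± 0.35) and IL6 (0.23 ± 0.32). CXCL5 and NFKBIA, CXCL8 and CXCL1, and CXCL2 and CCL2 were neighbours that did not differ beyond their spread. CXCL5 and CXCL1 ranked above 98.8% and 96.2% of all 34957 genes in si-ctrl, and after si-PLANE.2 CXCL1 headed the order at 496 ± 12.2 FPKM, above 99.4% of genes.

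Set together, 0 of the 9 genes tested passed an adjusted p of 0.05 in edgeR after si-PLANE.1, against a background of 0.00688% of 14535 genes called higher and 0.0275% called lower. All 9 had a negative log2 difference, with a median of -0.55 against 0.00 over all genes. An unadjusted p under 0.05 was reached by 6 of the 9 and by 10.4% of all genes, and DESeq2 called 2, CXCL8 and CCL20, both lower. With the replicate number added as a block, edgeR called 8 of the 9, all lower, and 1225 of all 14535 genes. No label says that the numbers mark a batch. In 6 genes (CXCL8, CCL2, CCL20, NFKBIA, TNFAIP3 and ICAM1) both si-PLANE.1 libraries lay below both si-ctrl libraries in FPKM, which was so for 14.2% of all genes, and in 0 they lay above, which was so for 26.9%. The directions of CXCL1 and CXCL5 rested on si-ctrl library 1, without which they were 0.14 and 0.11.

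After si-PLANE.2, 7 of 10 genes were called higher and 1, NFKBIA, lower, where 31.8% of 14168 genes were called higher and 32.3% lower. The median log2 difference was 0.88 without IL6, and 1.05 with it, against -0.03 over all genes. In CXCL8, CXCL1, CXCL2, CXCL5, CCL2 and TNFAIP3 both si-PLANE.2 libraries lay above both si-ctrl libraries in FPKM (30.9% of all genes). In NFKBIA both lay below (49.7%). IL6 is among the 10 tested but is left out of these FPKM comparisons, since it met the minimum level only through its si-PLANE.2 libraries. Scaling moved the background, since 49.7% of all called genes were higher on the counts, 37.1% in limma on log2(FPKM + 1) and 28.6% on log2(TPM + 1), with the median of all genes at -0.22 and -0.37 in the latter. CXCL8, CXCL1, CXCL2 and CCL2 were called higher under every alternative run, while limma on log2(TPM + 1) left 5 genes called and leaving out si-PLANE.2 library 3 or library 4 left 5. Both siRNA comparisons use the same si-ctrl libraries.

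The siRNAs were also compared with each other. Of 9 genes tested, 8 were higher after si-PLANE.2 than after si-PLANE.1, where 31.1% of 14440 genes were called higher and 33.4% lower. CCL2 differed most, at 14.9-fold (log2 3.89 ± 0.27, adjusted p = 6.9e-06), followed by CXCL1 at 7.02-fold (2.81 ± 0.27, adjusted p = 3.48e-05). CXCL2 and CXCL8 were 3.79-fold and 3.72-fold higher. ICAM1, which did not pass against si-ctrl in either comparison, was 2.67-fold higher here (log2 1.42 ± 0.38, adjusted p = 0.00978), although without si-PLANE.2 library 3 it had an adjusted p of 0.0504. NFKBIA had a log2 difference of 0.03 with a 95% interval of -0.22 to 0.29, and its direction turned to -0.70 in limma on log2(FPKM + 1) and to -0.93 on log2(TPM + 1), both past the threshold. Of all genes called, 48.2% were higher on the counts, 32.8% in limma on log2(FPKM + 1) and 22.2% on log2(TPM + 1).

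**Figure D3:**
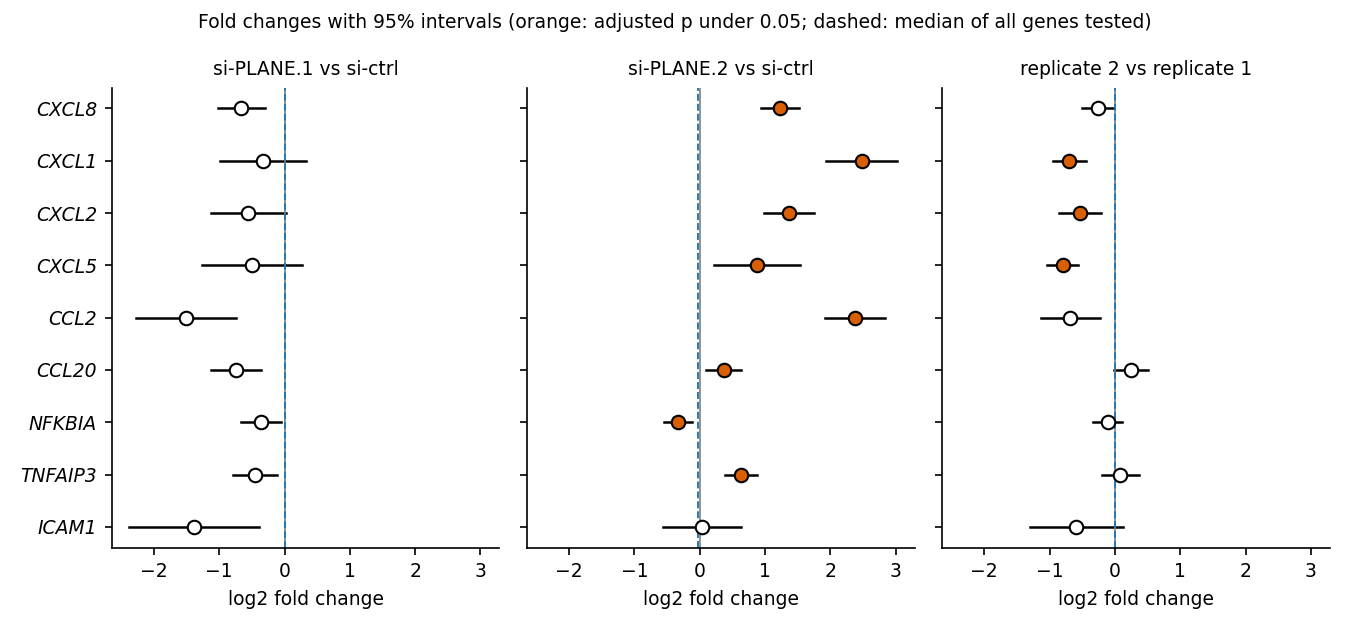
Log2 fold changes of 9 genes (points) with 95% intervals (lines) for si-PLANE.1 against si-ctrl, si-PLANE.2 against si-ctrl and replicate 2 against replicate 1, with orange for an adjusted p under 0.05 in edgeR and a dashed line at the median of all genes. All 9 points lie below 0 after si-PLANE.1 with none called, and after si-PLANE.2 they spread from -0.33 for NFKBIA to 2.48 for CXCL1.

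The gene totals hid changes among transcripts, which are described without a test. CXCL1-201, the coding transcript, made up 91.1% to 99.0% of CXCL1 FPKM with si-ctrl and si-PLANE.1 and 57.0% and 51.7% after si-PLANE.2. The rest was CXCL1-202 (chr4:74735110-74735894), a shorter transcript of the first part of the gene with no defined coding sequence, at 2.31 and 5.00 FPKM with si-ctrl, 0.80 and 0.78 FPKM with si-PLANE.1 and 209 and 243 FPKM with si-PLANE.2. By expected counts, which are not scaled for length, CXCL1-202 made up 23.0% and 26.9% of CXCL1 after si-PLANE.2. CXCL1-201 alone was at 94.8 and 51.4 FPKM with si-ctrl and at 277 and 261 FPKM with si-PLANE.2, and CXCL1 remained higher with coding transcripts alone (log2 1.99, adjusted p = 0.000856 in edgeR).

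For NFKBIA the coding transcript NFKBIA-201 was at 83.9 and 74.3 FPKM with si-ctrl, 73.1 and 55.6 FPKM with si-PLANE.1 and 78.9 and 76.8 FPKM with si-PLANE.2, so that si-ctrl and si-PLANE.2 overlapped. NFKBIA-210 (chr14:35870998-35873948), annotated as retaining an intron, was at 81.3 and 104 FPKM with si-ctrl, 80.7 and 73.1 FPKM with si-PLANE.1 and 1.44 and 19.8 FPKM with si-PLANE.2. The lower NFKBIA total after si-PLANE.2 thus lay in the retained-intron form. CCL20 showed the same kind of split. Its coding transcripts CCL20-201 and CCL20-202 were at 74.7 and 69.6 FPKM and at 48.5 and 39.7 FPKM after si-PLANE.2, above 49.7 and 60.4 FPKM and 26.7 and 26.9 FPKM with si-ctrl. CCL20-203 (chr2:228680085-228682179), which has no defined coding sequence, was at 31.7 and 29.8 FPKM with si-ctrl, 33.9 and 35.2 FPKM with si-PLANE.1 and listed at 0 in both si-PLANE.2 libraries.

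With coding transcripts alone, CCL20 had a log2 difference of 0.62 after si-PLANE.2 (adjusted p = 0.00728 in edgeR). CXCL8 was shared between CXCL8-201, at 41.5 and 27.0 FPKM with si-ctrl and 87.9 and 65.9 FPKM with si-PLANE.2, and the shorter CXCL8-202, at 51.1 and 64.4 FPKM and at 85.4 and 103 FPKM, both coding and both higher there. CXCL2-202 held 63.5% to 79.3% of CXCL2 FPKM in every library, and CXCL5 had a single transcript in the tables. TNFAIP3-203, a short coding form, was at 1.29 and 0 FPKM with si-ctrl and at 5.86 and 9.08 FPKM after si-PLANE.2. The full-length TNFAIP3-201 was at 8.06 and 7.95 FPKM and at 10.7 and 11.7 FPKM. TNFAIP3-202, also short and coding, went the other way, from 5.01 and 3.06 FPKM to 1.42 and 1.21 FPKM. FPKM, scaled for length, gives short forms a larger share than counts do. After si-PLANE.2 TNFAIP3-203 held 2.36% and 3.31% of the gene's expected counts, and TNFAIP3-201 held 95.4% and 95.3%. Smaller forms of CXCL2 were CXCL2-201, without a defined coding sequence, at 6.17 and 2.92 FPKM with si-ctrl and 1.94 and 7.95 FPKM with si-PLANE.2, and the retained-intron CXCL2-203, at 4.39 and 3.20 FPKM and at 9.99 and 9.53 FPKM. CCL2-201 held at least 95.5% of CCL2 FPKM and ICAM1-201 at least 74.1% of ICAM1 FPKM in every library. These shifts between transcript classes occurred in the same libraries in which histone mRNAs without poly(A) were low, and the part of library preparation in them was not tested.

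**Figure D4:**
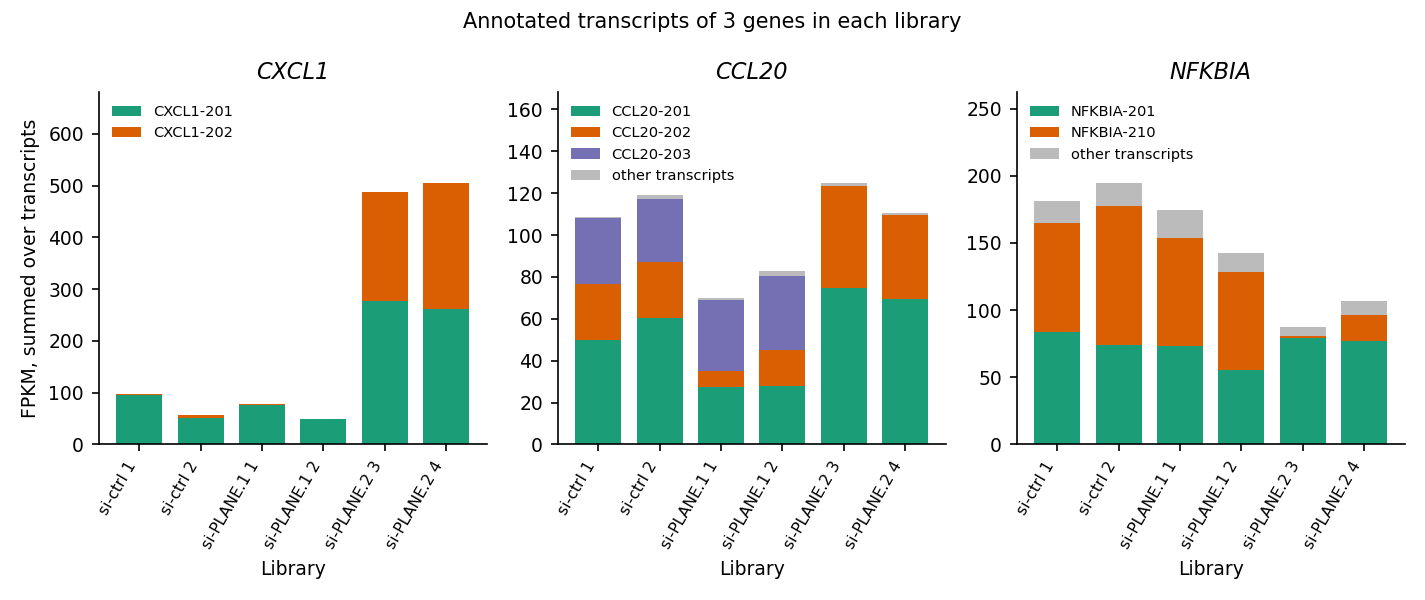
Stacked bars give the FPKM of each annotated transcript of CXCL1, CCL20 and NFKBIA in each library, with transcripts under 10% of the gene total in every group pooled in grey. CXCL1-202 appears in the si-PLANE.2 libraries (209 and 243 FPKM), where CCL20-203 is at 0 and NFKBIA-210 is at 1.44 and 19.8 FPKM.

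Replicates 1 and 2, the numbers that si-ctrl and si-PLANE.1 share, were compared over these 4 libraries with the group as a term. Each group holds a single library of each number. The fit thus left little spread of a gene's own, and its p-values rest mainly on spread pooled over genes. Of 9 genes tested, 0 were higher in replicate 2 and 3 were lower, where 2.68% of 14535 genes were called higher and 2.92% lower. The 3 were neutrophil chemokines, CXCL5 (log2 -0.80 ± 0.12, adjusted p = 1.69e-09), CXCL1 (-0.70 ± 0.13, 4.97e-06) and CXCL2 (-0.53 ± 0.17, 0.0293). CXCL5 fell from 265 to 128 FPKM between the si-ctrl libraries and from 181 to 115 FPKM between the si-PLANE.1 libraries. CXCL1 fell from 97.1 to 56.4 FPKM and from 77.8 to 49.6 FPKM.

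CCL2 differed by -0.68 ± 0.23 without passing (adjusted p = 0.0561), and was lower in replicate 2 in both groups. CXCL8 differed by -0.25, ICAM1 by -0.59 and NFKBIA by -0.11, while CCL20, at 0.25, and TNFAIP3, at 0.08, lay on the other side, and none of the 5 passed. The difference in CXCL5 between replicates was of the size of its difference between si-PLANE.2 and si-ctrl. These calls depended on the fit, with 0 of the 9 genes called in limma at any scale, with the most abundant transcript, without the group term, or without si-ctrl library 1 or si-PLANE.1 library 2 (the latter 2 also without the group term). Of all genes called, 47.8% were higher on the counts and 9.52% and 10.3% in limma on log2(FPKM + 1) and log2(TPM + 1).

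Interferon-stimulated genes moved with the replicate number. All 20 tested were lower in replicate 2, and their summed levels were 1596 and 2310 FPKM in replicate 1 of si-ctrl and si-PLANE.1, 216 and 229 FPKM in replicate 2, and 438 and 363 FPKM with the si-PLANE.2 libraries. Their part in the chemokine differences between replicates was not tested. CD68 was also lower in replicate 2 (log2 -0.65, adjusted p = 0.000121 in edgeR). Of other NF-kB targets, LCN2 (-1.08), C3 (-0.52) and PTGS2 (-0.39) were lower and GADD45B (0.55) and TNFAIP8 (0.45) higher in replicate 2, of 25 tested. In the list of receptors and kinases upstream of NF-kB, 4 of 27 were lower, among them TLR3 (-1.90), MYD88 (-0.73) and IRAK1 (-0.43). Of 10 AP-1 and C/EBP factors tested, which can bind promoters beside NF-kB, FOS (1.55), CEBPD (0.68) and JUNB (0.44) were higher and 0 lower. Of 8 proteins that bind AU-rich elements in mRNAs, ZFP36 (0.63), which destabilises such mRNAs, was higher and 0 were lower. The part of these factors in the chemokine differences was not tested either, and the AP-1 motif was found in the promoter of CXCL8 alone.

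The other genes of the pathway were examined by list. After si-PLANE.1, 0 genes of any list passed in edgeR without the replicate block. An unadjusted p under 0.05 was reached by 4 of 16 NF-kB subunits and inhibitors, 5 of 27 upstream receptors and kinases and 3 of 25 other targets. After si-PLANE.2, 8 of the 16 subunits and inhibitors were higher and 3 lower (median log2 difference 0.37). RELB (log2 1.82, adjusted p = 1.49e-05), a subunit of the noncanonical pathway, was at 8.50 and 7.95 FPKM with si-ctrl and at 24.0 and 25.1 FPKM with si-PLANE.2, and NFKBIB (1.54), another cytoplasmic inhibitor, was also higher. NFKBIE (1.17) was higher on the counts, although its FPKM values of 8.16 and 5.77 in si-ctrl and 5.51 and 9.34 in si-PLANE.2 overlapped. REL, the subunit c-Rel, was at 23.0 and 23.8 FPKM with si-ctrl and at 3.25 and 3.93 FPKM with si-PLANE.2 (log2 -2.43, adjusted p = 5.61e-06), and N4BP1 (-0.99), a restraint on the pathway, was lower. OTULIN (-0.43), another restraint, was lower on the counts, although its FPKM values of 11.8 and 8.42 with si-ctrl and 9.61 and 10.7 with si-PLANE.2 overlapped.

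Upstream, 10 of 27 receptors, adaptors and kinases were higher and 9 lower after si-PLANE.2, with a median of 0.02 that was close to that of all genes. IRAK1 (log2 1.69), TRADD (1.69) and TRAF2 (1.40), adaptors and kinases of the interleukin-1 and tumour necrosis factor receptors, led the rise, and the receptors TLR5 (-2.23) and IL1RAP (-1.57) and the adaptor TAB3 (-1.49) led the fall. Of 26 other NF-kB targets tested, 13 were higher and 4 lower (median 0.37). LTB was among those higher. It was at 0.28 and 0.54 FPKM with si-ctrl and 1.79 and 1.49 FPKM with si-PLANE.2, and met the minimum level only through the latter. SAA1, an acute-phase protein, was at 2.01 and 1.06 FPKM with si-ctrl and at 29.1 and 34.5 FPKM with si-PLANE.2 (log2 4.65, adjusted p = 2.22e-05), and its neighbour SAA2 (3.34), a near copy with which it may share reads, was also higher. LCN2, which binds bacterial siderophores, was at 52.3 and 28.1 FPKM with si-ctrl and at 298 and 309 FPKM with si-PLANE.2 (log2 3.19, adjusted p = 3.78e-05). CFLAR (-1.35), BIRC3 (-0.85), both inhibitors of cell death, and KLF6 (-0.78) were lower, with CFLAR at 46.5 and 46.8 FPKM with si-ctrl and 42.9 and 38.6 FPKM with si-PLANE.2.

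Of the AP-1 and C/EBP factors, 6 of 9 tested were higher after si-PLANE.2 and 0 lower, led by JUN (log2 1.98), ATF3 (1.62) and FOSL1 (1.43). Of 8 proteins that bind AU-rich elements, ZFP36L2 (0.50) and KHSRP (0.46) were higher and ZFP36L1 (-0.74) lower on the counts, although ZFP36L1 was at 52.5 and 65.1 FPKM with si-ctrl and 63.4 and 65.6 FPKM with si-PLANE.2. Among 5 receptors for these ligands that could be tested, IL6R (0.76 on the counts, with 7.66 and 7.22 FPKM with si-ctrl and 6.19 and 6.48 FPKM with si-PLANE.2) was higher and IL6ST (-0.81) lower, and CXCR1 and ACKR1 were listed at 0 in all 6 libraries. Of 19 interferon-stimulated genes tested, 0 were higher and 4 lower, among them IFI44L, OAS2 and MX1, which of the si-ctrl libraries were high in replicate 1 alone. The subunits, inhibitors and targets of NF-kB thus moved in both directions after si-PLANE.2. On the counts more were called higher than lower, at 8 and 3 of 16 subunits and inhibitors and 13 and 4 of 26 other targets, with LTB among the 13. Some of the genes called, NFKBIE higher and OTULIN lower among them, overlapped si-ctrl in FPKM. Over all genes the split on the counts was near even, at 31.8% higher and 32.3% lower. Scaling moved that background, with 37.1% of called genes higher in limma on log2(FPKM + 1). The split of these lists was not examined on that scale.

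**Figure D5:**
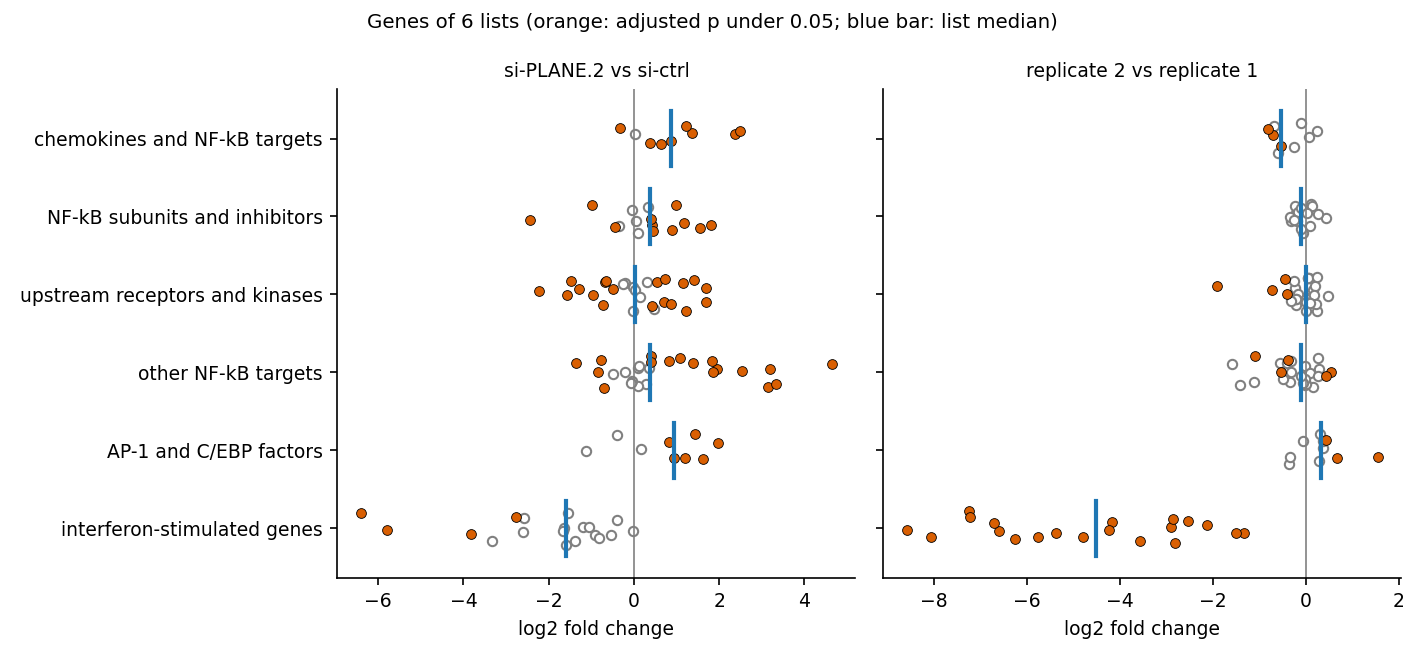
Each point is the log2 fold change of a gene tested, by list, for si-PLANE.2 against si-ctrl (left) and replicate 2 against replicate 1 (right), with orange for an adjusted p under 0.05 in edgeR and a blue bar at the list median. IL6 is left out, and fitted values of genes listed at 0 in a group depend on the fit's prior count. All 20 interferon-stimulated genes are called lower in replicate 2, and 13 of 26 other NF-kB targets are called higher after si-PLANE.2.

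The genes whose profile of log2(FPKM + 1) over the 6 libraries, centred on its mean, lay nearest to that of CXCL8 were SLX1A (Euclidean distance 0.15), CDC6 (0.23), DSCC1 (0.26), ENSG00000257028 (0.27) and G6PC3 (0.31), out of 14439 genes. The nearest of the genes described here were CXCL2 at rank 57 and TNFAIP3 at rank 134, followed by CXCL5 at 998, ICAM1 at 1396 and CCL20 at 2131. CCL2, CXCL1 and NFKBIA ranked 6702, 6940 and 9608. The 6 points of each profile share the same libraries, and the order is a description.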

How the data were processed

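Per the labels, 2 tables held 6 libraries, and the si-ctrl values were identical in both. For every transcript the authors deposited an expected count, not normalized, and an FPKM value scaled for length and depth. The labels' processing notes name Trimmomatic 0.30, HISAT2 2.0.1, HTSeq 0.6.1, DESeq and hg19, and the methods name DESeq2. The tool that gave the expected counts and its use of strand are not given in the sources used here. Of 180253 transcripts, 16723 had no gene identifier (3.03% to 3.62% of the counts) and were left out, and symbols were found for 96.4% of gene identifiers.

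Expected counts were summed per gene, rounded and tested with edgeR 4.0.16 in R 4.3.3 (TMM, glmQLFit and glmQLFTest, two-sided, Benjamini-Hochberg over all genes with a mean of at least 0.5 FPKM), each siRNA with the groups of its comparison. Comparisons between the siRNAs used all 6 libraries, and replicates were compared over si-ctrl and si-PLANE.1. TPM was computed from the FPKM values. Standard errors came from dividing the log2 fold change by the root of F. Alternatives were DESeq2 1.42.0, limma 3.58.1 on log2 values with a pseudocount of 1 or 0.1, other scalings and minimums, other gene summaries, a replicate block and leaving out each library. Counting transcripts annotated as protein-coding alone was an alternative chosen later, with the data in view. Simulated data were used to test the scripts. With 10572151 to 20778431 counts per library, ICAM1 and IL6 are imprecise.

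The members and the gene lists were chosen with earlier results of these data known. The text names all 10 genes, CXCL3, up to 3 called genes per list, comparison and direction with the largest differences, transcripts with at least 10% of a gene's FPKM in a group (less those of CXCL3 and IL6 and a minor one of ICAM1), and the 5 genes nearest to CXCL8. CXCR1, ACKR1, AIF1 and CD3E were named after their values were seen. Gene positions are from GENCODE for GRCh37, the same build as hg19, and promoters from RefSeq for GRCh38.p14. The listed genes CCL5, SOD2, MAP3K14, IKBKG, PECAM1, HIST1H3B and HIST1H2AE were not analysed here.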

Additional observations from a re-analysis of the deposited data

Results flagged for a closer look

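The siRNAs' effects on the same genes differed in a direct test of si-PLANE.2 against si-PLANE.1, in edgeR with Benjamini-Hochberg adjustment. The log2 difference was 1.89 for CXCL8, 2.81 for CXCL1, 1.92 for CXCL2, 1.38 for CXCL5, 3.89 for CCL2, 1.12 for CCL20, 1.09 for TNFAIP3 and 1.42 for ICAM1, with adjusted p-values from 6.9e-06 for CCL2 to 0.00978 for ICAM1. In this comparison 31.1% of all genes were called higher. Histone mRNAs without a poly(A) tail were also low in the si-PLANE.2 libraries (2.94 and 3.12 FPKM against 203 to 391 FPKM), and library preparation and siRNA cannot be told apart.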

How the results depend on the processing

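With 2 libraries per group, the calls of CXCL5, CCL20 and NFKBIA after si-PLANE.2 are the least firm, and the causes of the changes below were not tested.

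For si-PLANE.1 the count of the 10 genes called was 2 in DESeq2 and 8 with a replicate block, in place of 0. The count of all genes called was 125 in DESeq2, 1 and 3 in limma on log2(FPKM + 1) and log2(FPKM + 0.1), 1 on log2(TPM + 1), 0 with the most abundant transcript, 0 with protein-coding transcripts alone, 17 with all 6 libraries in one fit and 1225 with the block, in place of 5, and 1 to 5 with a library left out. Of the 5 genes 20% were higher, and the 1 gene of limma on log2(TPM + 1) was higher. The libraries of si-ctrl and si-PLANE.1 carry the same numbers, and no label says that these mark a batch. Interferon-stimulated genes did move with the number, from 1596 and 2310 FPKM summed in replicate 1 to 216 and 229 FPKM in replicate 2. The replicate differences of both groups had a correlation of 0.382 over 14535 genes, which are no independent replicates, and the 8 genes were lower under the block.

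For si-PLANE.2 against si-ctrl, 5 genes were called with limma on log2(TPM + 1) and 5 to 8 with a library left out, in place of 8. CCL20 turned to -0.11 and ICAM1 to -0.034 with TPM, NFKBIA to 0.10 and ICAM1 to -0.073 with the most abundant transcript, and NFKBIA to 0.013 and ICAM1 to -0.10 with protein-coding transcripts alone. ICAM1 ran from -0.10 to 0.17 with a library left out. NFKBIA against si-PLANE.1 turned to -0.025 with upper-quartile scaling, -0.0285 with a minimum of 2 FPKM, -0.70 in limma on either log2 FPKM scale and -0.93 with TPM, and ran from -0.086 to 0.15 with a library left out.

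Between replicates, 0 of the 10 genes were called in limma with FPKM or TPM, with the most abundant transcript and without the group term, in place of 3, and 0 to 2 with a library left out. All genes called numbered 233 in DESeq2, 42, 62 and 68 in limma on log2(FPKM + 1), log2(FPKM + 0.1) and log2(TPM + 1), 102 with the most abundant transcript, 386 with protein-coding transcripts alone and 113 without the group term, in place of 813, and 149 to 252 (152 and 210 between them) with a library left out. TNFAIP3 turned to -0.14, -0.15 and -0.23 in the same order of limma fits, and NFKBIA to 0.16 with the most abundant transcript. With a library left out, values ran from -0.63 to 0.10 (0.045 between) for CXCL8, -1.64 to 0.28 for CCL2, -0.14 to 0.70 for CCL20, -0.36 to 0.13 (0.022 between) for NFKBIA, -0.17 to 0.36 (-0.12 between) for TNFAIP3 and -1.79 to 0.14 for ICAM1. For si-PLANE.1 they ran from -0.68 to 0.14 for CXCL1 and from -0.92 to 0.11 for CXCL5.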
